A study of Mus musculus with 15 samples.

Results

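The replication-dependent and variant histone genes are the mouse genes for the proteins around which DNA is wound, together with the linker histones that bind between these spools. Members were the genes whose symbol in the deposited tables follows the families H1f, H2ac, H2bc, H3c, H4c, H2az, H2ax, H2aj or H3f, a rule that uses names and no measured value. It took 77 of the 55359 genes in the tables. RNA was sequenced from 15 libraries of mouse hematopoietic progenitors that had been immortalized with Hoxb8, which holds blood progenitors in a dividing, undifferentiated state, and came from fetal liver. The series asks how DDX41, an RNA helicase mutated in the germline of some people with myeloid malignancy, and 2 of its disease variants act when returned to cells with 1 copy of Ddx41. All cells were kept with β-estradiol, exposed to a retrovirus for 2 days and sorted for GFP. The 5 groups hold 3 libraries each: WT empty is the hi-Ddx41+/+ line with the empty vector, and the 4 others are the hi-Ddx41+/- line, given the empty vector in Het empty, the wild-type protein in Het DDX41 and a variant, G173R or R525H, in Het G173R and Het R525H.

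Each genotype is represented by 1 line, so genotype and line cannot be told apart, and the promoter that drives the vectors is not given in the sources used here. No label ties the libraries of a group to different cultures. What the p-values measure is thus the spread between these libraries, and it may be technical. Groups and library numbers 1 to 3 follow the sample titles. The deposited tables of all 12 heterozygous libraries carry other group codes than their titles: A for the titled empty vector, B for wild-type DDX41, E for G173R and WT for R525H. E and WT are the codes by which the titles mean the empty vector and wild-type DDX41, and what A and B stand for is not given in the sources used here. What each heterozygous group received therefore rests on the titles, and no value here settles it.

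Core histones H2A, H2B, H3 and H4 form the nucleosome, and H1 closes the DNA that enters and leaves it. Replication-dependent histone genes lie in clusters, are transcribed in S phase, and give mRNAs without a poly(A) tail that end in a short stem-loop, the site of the stem-loop binding protein Slbp. Replication-independent variants (H1f0, H1f10, H2az1, H2az2, H2ax, H2aj, H3f3a and H3f3b) are made outside S phase too, mostly from polyadenylated mRNA, and replace the others in non-dividing or differentiating cells and at particular sites. Sorted by symbol, 62 members were replication-dependent (5 H1, 17 H2A, 16 H2B, 12 H3 and 12 H4) and 8 replication-independent. The other 7 were germline or other genes (H1f6, H1f7, H1f8, H1f9, H2ac1, H2bc1 and H3f4). The class of a single gene was not tested, and H2bc21, counted with H2B, may not be replication-dependent. Of the 75 members matched to a RefSeq gene, 54 lie on chromosome 13 and 11 on chromosome 3.

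The 3′ stem-loop is shown because it is the feature that sets the replication-dependent mRNAs apart, and total RNA without poly(A) selection was sequenced here. The search used the consensus of the histone stem-loop, with the fourth, the tenth and the thirteenth base free, on the transcript strand of the GENCODE M21 models (GRCm38). Capitals mark the 16 bases of the match, with 5 bases on either side.
H1f3 (chr13:23555787-23555802, plus strand): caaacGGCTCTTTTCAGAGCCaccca
H2ac19 (chr3:96239784-96239799, minus strand): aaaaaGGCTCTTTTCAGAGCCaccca
H2bc3 (chr13:23747203-23747218, plus strand): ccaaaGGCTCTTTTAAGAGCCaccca
H3c3 (chr13:23745047-23745062, minus strand): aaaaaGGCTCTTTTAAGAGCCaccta
H4c6 (chr13:23551291-23551306, minus strand): tcaaaGGCCCTTTTCAGGGCCaccca
H2ax (chr9:44335240-44335255, plus strand): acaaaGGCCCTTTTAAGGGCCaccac
The match was found in 40 of 77 members and in 45 of 21901 protein-coding genes (0.206%). It was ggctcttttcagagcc in 24 members, and all 8 matching H4 genes carried one of the forms that begin ggccc. Of the models under 500 bases 11 of 29 held it, against 29 of 48 longer ones. Among the 8 replication-independent genes only H2ax, whose mRNA is known in both a stem-loop and a polyadenylated form, held it.

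Promoters are shown for the linker gene H1f1 and the H2B gene H2bc18, which had the highest and second highest deposited TPM of all members, and for the linker variant H1f0, the member with the smallest p in the test across groups. Each is the 150 bases before the RefSeq start (GRCm38.p6), 5′ to 3′, and capitals mark, on either strand, CCAAT, the TATA box with the letters TATAAA and the octamer with the letters ATTTGCAT.
H1f1 (chr13:23763518-23763667, plus strand): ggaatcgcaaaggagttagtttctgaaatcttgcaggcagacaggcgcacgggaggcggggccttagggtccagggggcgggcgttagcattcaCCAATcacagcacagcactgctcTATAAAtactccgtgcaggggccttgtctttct
H2bc18 (chr3:96269550-96269699, plus strand): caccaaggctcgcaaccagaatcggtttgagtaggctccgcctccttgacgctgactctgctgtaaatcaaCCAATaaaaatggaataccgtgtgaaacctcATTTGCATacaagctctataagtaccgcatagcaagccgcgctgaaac
H1f0 (chr15:79028062-79028211, plus strand): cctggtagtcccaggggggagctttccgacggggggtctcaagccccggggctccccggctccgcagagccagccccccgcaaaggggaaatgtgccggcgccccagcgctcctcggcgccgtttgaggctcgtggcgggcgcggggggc
Within 250 bases before the start, on either strand, CCAAT was in 55 of 68 member promoters (80.9%) and in 33.9% of all 32851 RefSeq promoters. It was in all 5 H1, 16 H2A and 13 H2B promoters with a sequence, in 8 of 10 of H3 and in 3 of 11 of H4. TATAAA was in 42.6% of the member promoters against 12.4% of all. The octamer was in 5 of 16 H2A and 5 of 13 H2B promoters, in none of the H1, H3 or H4 replication-dependent promoters, and in 1.60% of all promoters. AAACACA, the H1 box, was in 4 of 5 H1 promoters against 6.25% of all. These are matches of letters and were not tested as binding sites.

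Libraries held 22104066 to 49145873 expected counts. Ddx41 read 55.6 to 63.5 CPM, the count scaled to the TMM-adjusted library total, in the WT empty libraries and 27.8 to 36.9 in the 12 heterozygous ones, without overlap, while the 4 heterozygous groups had mean levels between 30.3 and 33.3. These counts check the genotype; they do not show which vector a library received. The labelled cell type carried its markers: all 12 progenitor markers, among them Cd34, Kit and Mpo, were counted in every library. Of the markers of other cells, Hba-a1, Alb, Ttr, Col1a1, Col3a1 and Cdh5 were at 0 in all 15, whereas the macrophage marker Adgre1 read 122 to 348 CPM, the neutrophil marker Mmp8 9.03 to 224 and the mast cell marker Cpa3 11.6 to 58.7. The summed neutrophil markers were 138 to 227 CPM in WT empty and 18.7 to 50.4 in the heterozygous libraries, and the summed mast cell markers 57.0 to 110.1 against 20.6 to 28.6. Summed levels of all 7 lists of other cell types were higher in WT empty than in Het empty without overlap. Several sums rested largely on 1 gene: the highest library read 224 CPM for Mmp8, 348 for Adgre1, 38.1 for Trf and 22.0 for Pecam1. The highest sums of their lists (neutrophil, monocyte and macrophage, fetal hepatocyte, stroma and endothelium) were 227, 383, 38.4 and 22.0. The summed monocyte and macrophage markers were 242 to 383 CPM against 158 to 199.5, lymphoid 29.1 to 44.8 against 15.1 to 20.7, fetal hepatocyte 25.6 to 38.4 against 5.21 to 10.1, stroma and endothelium 16.5 to 22.0 against 9.31 to 12.03, and erythroid 7.28 to 11.1 against 4.09 to 5.26. Whether such cells were present was not tested, nor was their part in any histone difference.

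Of the 77 members, 73 had a count in some library and 66 in all 15. H1f7, H1f9, H3c13 and H3c14 were at 0 throughout, and 67 members passed the filter on low counts: 59 replication-dependent and all 8 replication-independent genes. No germline or other gene passed. In 49 members the expected count was not whole in at least 8 libraries, which marks reads that match several genes and were divided between them, so a level of a single copy is less certain than the sum of its class. H2bc23 and H2bc24 show this. H2bc24 ranged widely, at 0.382, 0.293 and 41.5 CPM in WT empty, 40.6, 0.268 and 42.1 in Het empty, 14.02, 18.5 and 19.00 in Het DDX41, 27.4, 18.7 and 1.31 in Het G173R and 10.8, 9.44 and 0.495 in Het R525H. Its partner H2bc23 read 48.1 CPM in WT empty library 3, where H2bc24 was 41.5, and 95.8 in library 2, where H2bc24 was 0.293. The pair summed to 87.4, 96.1 and 89.6 CPM in the 3 WT empty libraries.

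Histone mRNA made up 0.457% to 1.05% of all counts. The sum of the 5 replication-dependent linker genes came to 1671, 1912 and 1478 CPM in WT empty, 1912, 2217 and 2061 in Het empty, 1954, 1997 and 1356 in Het DDX41, 2154, 2649.5 and 1224 in Het G173R and 1817, 2311 and 1260.3 in Het R525H. Linker mRNA was highest in library 2 of every group, and lowest in library 3 of every group but Het empty, where library 1 was lowest. Summed H2A mRNA came to 113, 109 and 114 CPM in WT empty, 114, 186 and 274 in Het empty, 149, 165 and 93.5 in Het DDX41, 120.1, 574 and 108 in Het G173R and 89.8, 379 and 104 in Het R525H. Libraries 2 of Het G173R and Het R525H stood above all other libraries for H2A, and WT empty was even. Summed H2B mRNA came to 1172, 1386 and 1133 CPM in WT empty, 1388, 1738 and 1846 in Het empty, 1518, 1479 and 1161 in Het DDX41, 1573, 2440.0 and 966 in Het G173R and 1362, 1918 and 911 in Het R525H.
For H2B the order of libraries was that of H2A in the Het G173R group, with a smaller gap. Summed H3 mRNA came to 463, 425 and 352 CPM in WT empty, 459.6, 615 and 823 in Het empty, 574, 526 and 374 in Het DDX41, 531, 1398 and 344 in Het G173R and 476, 989 and 330.1 in Het R525H. Summed H4 mRNA came to 487, 443 and 366 CPM in WT empty, 478, 690.5 and 897 in Het empty, 591, 649 and 344 in Het DDX41, 492, 1712 and 367 in Het G173R and 389, 1313 and 353 in Het R525H. Both sums were highest in Het G173R library 2 and next in Het R525H library 2, and Het empty library 3 came after them. The sum of the 8 replication-independent genes came to 1763, 1911 and 1849 CPM in WT empty, 1772, 1920.4 and 2008 in Het empty, 1880.0, 1860.0 and 1811 in Het DDX41, 1903, 2110.2 and 1749.9 in Het G173R and 1711, 1854 and 1625 in Het R525H. The sum of that class varied little: its highest library was 1.30 times its lowest, against 6.38 for H2A, 4.97 for H4, 4.23 for H3, 2.68 for H2B and 2.17 for H1. Its single genes ranged from a ratio of 1.23 for H3f3a to 2.05 for H1f0, 2.6 for H2ax and 5.27 for the scarce H1f10. In bulk RNA, fewer cells in S phase and less histone mRNA per cell cannot be told apart.

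**Figure D1:**
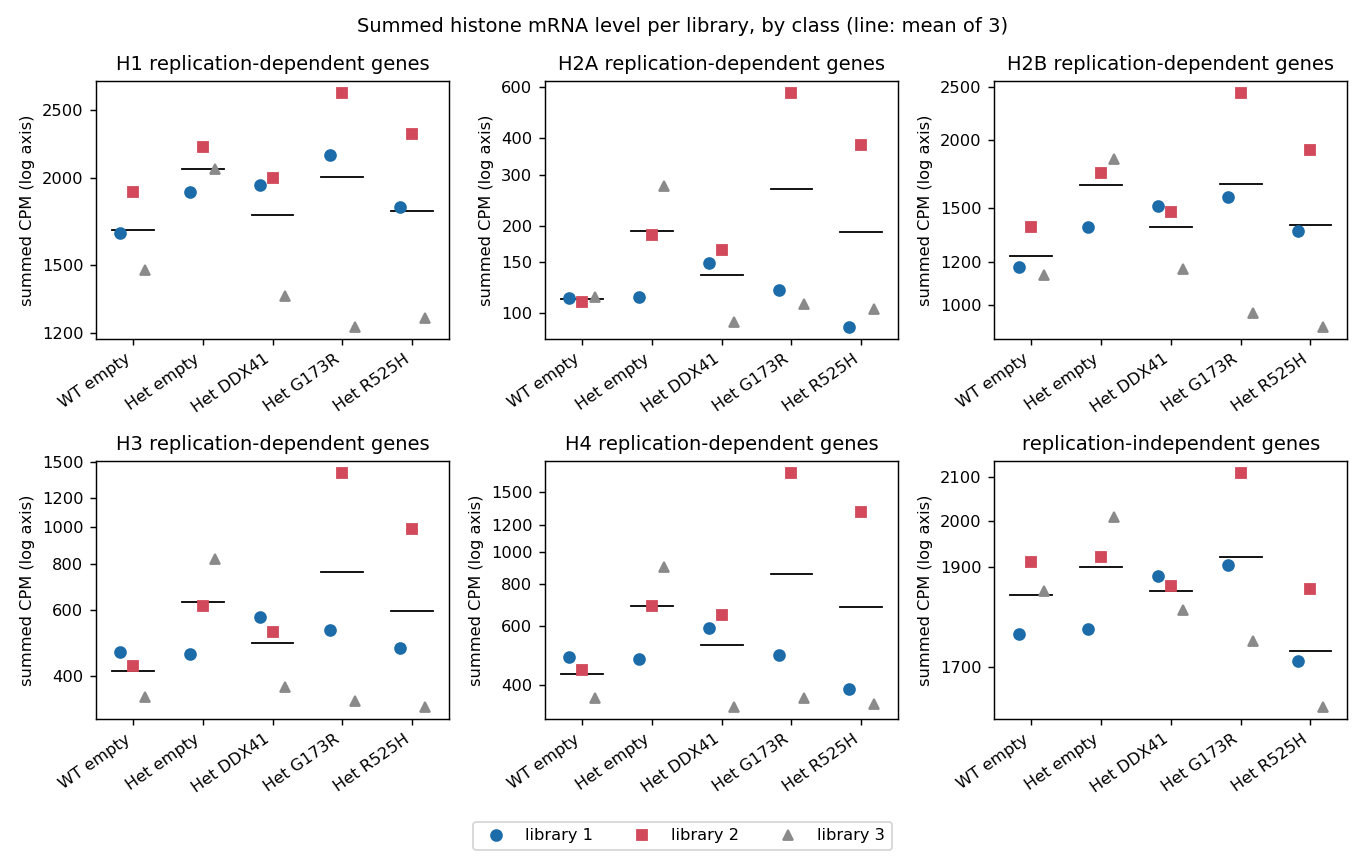
Summed CPM (log axis) of each histone class in the 15 libraries, by group, with a symbol for each library number and a line at the mean of 3. Library 2 of Het G173R and of Het R525H is the highest of its group in all 6 panels, and the H2A sum there reached 574 and 379 CPM.

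Within groups the replication-dependent genes varied together. The pooled SD of log2 CPM within groups had a median of 0.66 over the 59 tested replication-dependent genes, 0.18 over the 8 replication-independent genes and 0.21 over all 14548 tested genes. H2A genes had the highest class median (0.95), followed by H4 (0.78), H3 (0.63), H2B (0.44) and H1 (0.39). Of the 59 genes, 58 lay above the median of all genes. The exception was H2bc21, placed in this class by its symbol, with no stem-loop match in a model of 2620 bases. Library 2 was the highest of the 3 for 57 of 59 in Het G173R and 56 of 59 in Het R525H, while it was highest for 34.8% and 30.0% of all tested genes. In Het empty, library 1 was lowest for 55 of 59 replication-dependent and for all 8 replication-independent genes, and library 3 was highest for 48 of 59, whereas library 3 was lowest for 55 in Het DDX41, 50 in Het G173R, 45 in Het R525H and 41 in WT empty (43.8%, 43.6%, 41.8% and 35% of all tested genes). Of all tested genes in Het empty, library 1 was lowest for 34.5% and library 3 highest for 34.3%. Across the 61 tested members with a mean count above 100, Spearman's rho of the SD was 0.48 with the GC content of the transcript, -0.41 with effective length and -0.56 with mean count. Within the 54 replication-dependent genes among them it was 0.47, -0.27 and -0.60. These members share libraries and reads, and the values are descriptions.

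**Figure D2:**
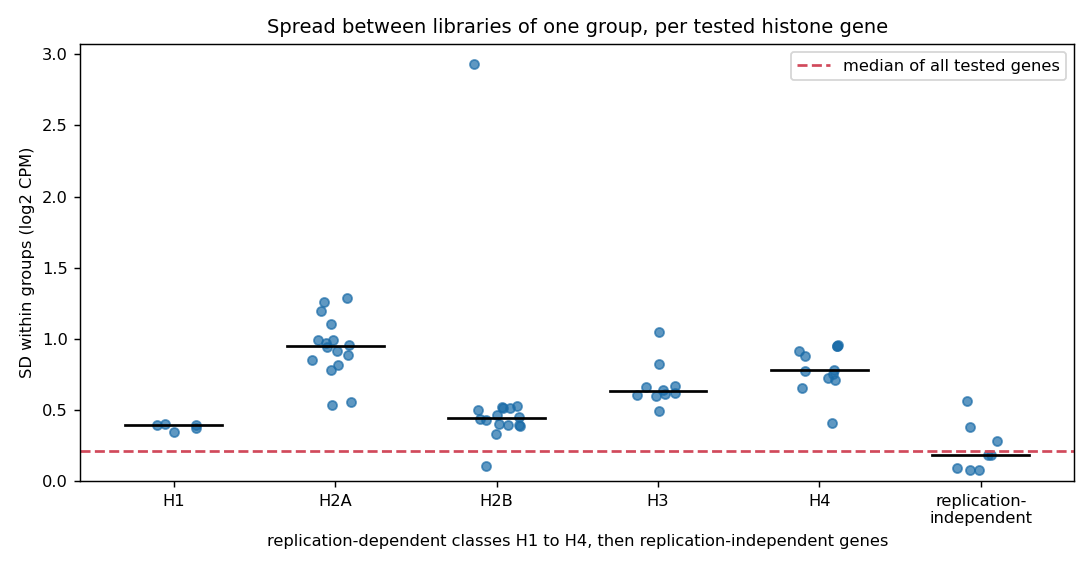
Pooled SD of log2 CPM between libraries of one group, 1 point per tested histone gene and a line at each class median. The class medians run from 0.95 for H2A to 0.18 for the replication-independent genes, and the dashed line is the median of all tested genes at 0.21. The H2B point near the top is H2bc24.

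Other gene sets shifted less in the libraries with high histone mRNA. The median deviation from the group mean on the log2 scale was 1.09 for replication-dependent genes in Het G173R library 2, 0.94 in Het R525H library 2 and 0.38 in Het empty library 3. The 33 DNA replication and S-phase genes deviated there by a median of 0.12, 0.08 and -0.05, and the 1444 non-member genes of highest GC content by 0.13, 0.13 and 0.05. Replication-dependent genes were low in library 3 of Het DDX41, Het G173R and Het R525H (-0.41, -0.79 and -0.62). S-phase genes were lower there too (-0.23, -0.19 and -0.18). In Het empty library 1 the 2 medians were -0.42 and -0.02. After a correction for GC content, added after the data were seen, the summed replication-dependent level in Het G173R was 4844, 8296 and 3007 CPM. Without it the level was 4870.2, 8773 and 3009. The H2A sum changed more: 472 CPM with the correction and 574 without in Het G173R library 2. In Het empty library 3 it was 240 and 274. Rmrp and Rpph1 are short non-coding RNAs without a poly(A) tail, chosen after their values were seen. Within their groups both were highest in library 2 of Het G173R and Het R525H and in library 3 of Het empty. Rmrp, the RNA of RNase MRP, read 130, 617 and 212 CPM in Het G173R, and Rpph1, the RNA of RNase P, read 555, 1891 and 878. In Het empty Rmrp read 146, 220.3 and 399 CPM. In Het R525H Rmrp read 106, 352 and 154 CPM and Rpph1 499, 1507 and 671. Neither RNA followed histone mRNA throughout. In WT empty Rpph1 was lowest in library 2 (772, 398 and 575 CPM). Rmrp in Het DDX41 was even (176, 182 and 178 CPM). In Het G173R and Het R525H both RNAs were higher in library 3 than in library 1, while summed histone mRNA was lowest in library 3. The part of RNA recovery or RNA quality in the histone spread was not tested.

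Linker and core genes with the highest deposited TPM showed the pattern of their class. H1f1, a replication-dependent linker gene on chromosome 13, had a mean of 1412 TPM. H1f1 read 687, 842 and 670.2 CPM in WT empty, 806, 921 and 847 in Het empty, 846, 885 and 558 in Het DDX41, 918, 1010.2 and 506 in Het G173R and 776, 855 and 531 in Het R525H. H1f5 read 294, 331 and 223 CPM in WT empty, 348, 385 and 325 in Het empty, 331, 337 and 230.1 in Het DDX41, 387, 438 and 198 in Het G173R and 326, 402 and 218 in Het R525H. In both linker genes library 3 was lowest in every group except H1f1 in Het empty.
H2ac19 read 35.9, 35.3 and 32.3 CPM in WT empty, 38.3, 66.6 and 106 in Het empty, 52.7, 53.3 and 31.1 in Het DDX41, 41.4, 239 and 32.8 in Het G173R and 31.3, 134 and 33.2 in Het R525H. H2ac4 read 14.8, 16.7 and 15.9 CPM in WT empty, 15.9, 26.5 and 30.2 in Het empty, 20.6, 23.6 and 11.3 in Het DDX41, 18.05, 64.8 and 12.3 in Het G173R and 13.1, 45.5 and 11.4 in Het R525H. Both encode H2A, and in both the libraries numbered 2 of Het G173R and Het R525H were the 2 highest of all 15, while their partners in the same groups lay within the range of the other groups.
H2bc18 read 136, 176 and 121 CPM in WT empty, 156, 168 and 169 in Het empty, 168, 154 and 135 in Het DDX41, 175, 197 and 98.4 in Het G173R and 182, 154 and 108 in Het R525H. H2bc3 read 162, 205 and 153 CPM in WT empty, 190.1, 236 and 234 in Het empty, 214, 202 and 168 in Het DDX41, 225, 309 and 131 in Het G173R and 196, 251 and 122 in Het R525H. These H2B genes varied less, and in Het R525H library 1 was the highest for H2bc18 while library 2 was for H2bc3.
H3c11 read 33.5, 29.9 and 24.04 CPM in WT empty, 34.7, 49.6 and 63.7 in Het empty, 45.9, 40.4 and 30.4 in Het DDX41, 40.9, 101 and 28.2 in Het G173R and 43.1, 73.7 and 24.4 in Het R525H. H3c2 read 75.4, 72.3 and 50.6 CPM in WT empty, 73.8, 96.8 and 104 in Het empty, 89.8, 85.5 and 58.3 in Het DDX41, 84.8, 196 and 49.3 in Het G173R and 81.7, 139 and 50.2 in Het R525H. For the 2 H3 genes the highest value was in Het G173R library 2.
H4c6 read 69.9, 71.7 and 52.9 CPM in WT empty, 68.05, 96.9 and 126 in Het empty, 88.2, 89.6 and 57.2 in Het DDX41, 82.8, 199 and 50.9 in Het G173R and 63.8, 151 and 47.3 in Het R525H. H4c17 read 38.9, 34.1 and 26.9 CPM in WT empty, 35.1, 55.01 and 72.01 in Het empty, 46.5, 55.9 and 26.1 in Het DDX41, 38.7, 157 and 26.6 in Het G173R and 31.02, 120.4 and 27.7 in Het R525H. Of these 2 H4 genes H4c17 had the larger ratio of highest to lowest library (6.02 against 4.22), and library 3 was the lowest of Het G173R in both.

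Replication-independent genes had steady levels, apart from a few. H3f3a and H3f3b encode the same protein, the replacement histone H3.3. H3f3a read 518, 582 and 602 CPM in WT empty, 499.9, 538 and 541 in Het empty, 539, 528 and 601 in Het DDX41, 530.0, 529 and 565 in Het G173R and 498, 491 and 525.3 in Het R525H. H3f3b read 466, 478 and 465 CPM in WT empty, 476, 509.6 and 570.0 in Het empty, 511, 488 and 508 in Het DDX41, 519, 559 and 499.9 in Het G173R and 486, 520.0 and 462 in Het R525H. Their pooled SDs of 0.08 were the lowest of all tested members. H2az1 and H2az2 encode the 2 forms of H2A.Z, a variant placed at promoters. H2az1 read 645, 697 and 635 CPM in WT empty, 663, 728 and 735 in Het empty, 697, 716 and 575 in Het DDX41, 709.9, 849.8 and 558 in Het G173R and 612, 707 and 539 in Het R525H. H2az2 read 36.4, 45.3 and 43.9 CPM in WT empty, 37.8, 42.1 and 41.3 in Het empty, 40.7, 41.02 and 43.1 in Het DDX41, 43.5, 42.1 and 44.4 in Het G173R and 34.8, 34.2 and 31.3 in Het R525H. For H2az2 the 3 Het R525H libraries were below all 12 others. H2ax encodes the variant phosphorylated at DNA breaks, and H2aj a variant close to canonical H2A. H2ax read 35.1, 39.5 and 31.8 CPM in WT empty, 36.6, 38.6 and 40.7 in Het empty, 35.04, 31.6 and 26.8 in Het DDX41, 39.97, 54.2 and 24.9 in Het G173R and 32.1, 45.7 and 20.6 in Het R525H. H2aj read 29.2, 27.5 and 28.3 CPM in WT empty, 25.9, 27.2 and 32.8 in Het empty, 26.6, 25.3 and 20.6 in Het DDX41, 28.7, 39.1 and 20.3 in Het G173R and 25.7, 31.5 and 20.6 in Het R525H. Both were highest in Het G173R library 2. H1f0 and H1f10 are linker variants made outside S phase. H1f0 read 32.9, 41.1 and 42.1 CPM in WT empty, 31.96, 35.7 and 46.2 in Het empty, 29.4, 28.4 and 35.7 in Het DDX41, 30.97, 33.98 and 36.6 in Het G173R and 22.5, 23.7 and 25.2 in Het R525H. H1f10 read 0.675, 0.526 and 0.960 CPM in WT empty, 0.960, 1.07 and 1.49 in Het empty, 1.0, 1.07 and 0.815 in Het DDX41, 0.799, 2.61 and 1.05 in Het G173R and 0.496, 1.40 and 0.636 in Het R525H. For H1f0 the Het R525H libraries, at 22.5 to 25.2 CPM, were below every other library, while H1f10 was low throughout.

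**Figure D3:**
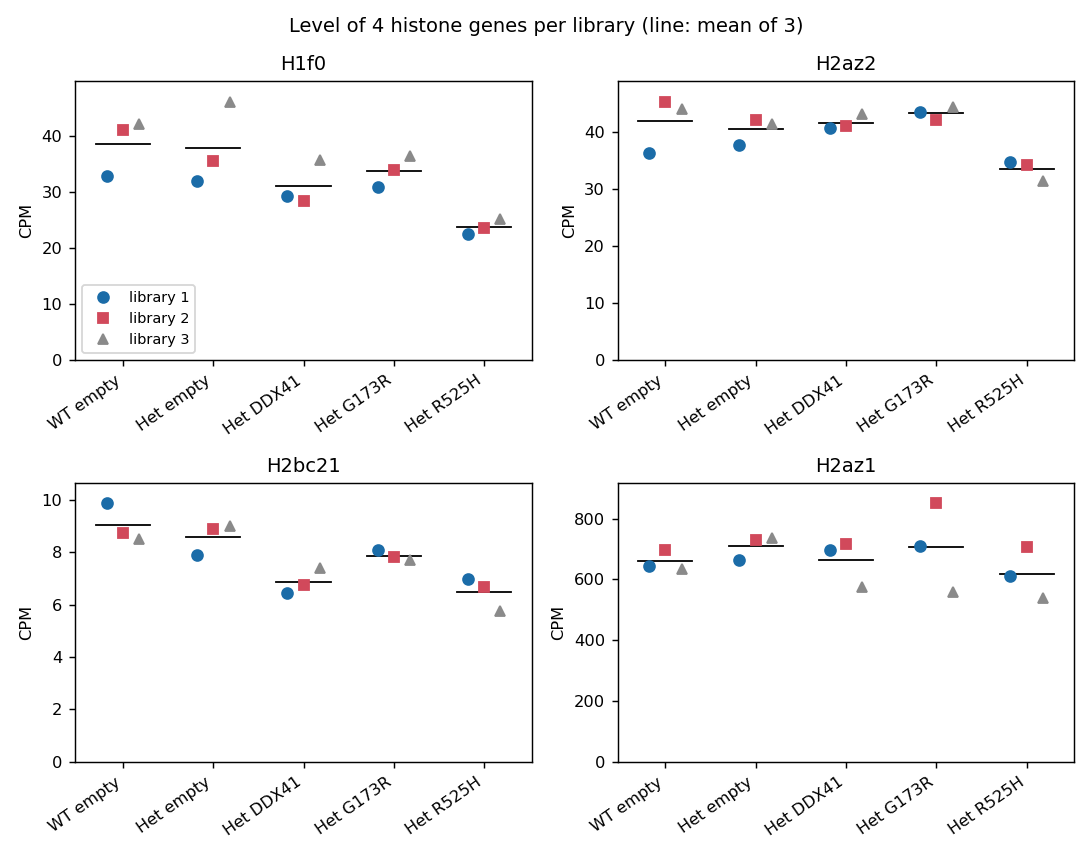
CPM of H1f0, H2az2, H2bc21 and H2az1 in the 15 libraries, by group, with a symbol for each library number and a line at the mean of 3. The Het R525H libraries of H1f0 and H2az2 sit below all others, with means of 23.8 and 33.4 CPM, whereas the groups overlap for H2az1.

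With edgeR, H1f0 was the only member that passed the test for any difference among the 5 groups (edgeR's quasi-likelihood F test, adjusted p = 0.0473 with Benjamini-Hochberg over all tested genes), a test that 3.7% of all genes passed. Group means were 38.7 ± 5.06 CPM in WT empty, 38.0 ± 7.39 in Het empty, 31.2 ± 3.98 in Het DDX41, 33.8 ± 2.80 in Het G173R and 23.8 ± 1.35 in Het R525H (SD, n = 3 each). The call was lost with DESeq2's size factors (adjusted p = 0.0537) and with limma-voom (0.0516), and without each of 10 single libraries. Those were WT empty 2 and 3, Het empty 2, Het DDX41 1 and 2, Het G173R 1 and 2 and all 3 of Het R525H, with adjusted p from 0.0619 to 0.191. It was also lost with the GC correction, under which no member passed. H2bc21 (adjusted p = 0.089) and H2az2 (0.115) did not pass. DESeq2 and the fit with the library number as a block each called 3 members, H1f0, H2az2 and H2bc21, among 1153 and 1762 of 14548 genes.

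Het R525H against Het empty asks what the R525H vector changed in cells with 1 copy of Ddx41. No member was called with edgeR at an adjusted p under 0.05 (0.0137% of all genes were). DESeq2 called 1 member (59 of 14548 genes) and limma-voom none, and 3 of 67 passed an unadjusted p of 0.05 (4.98% of all genes did). All 8 replication-independent genes had a negative log2 fold change, with a median of -0.21. The 59 replication-dependent genes had 17 positive and 42 negative values (48.3% of all genes were positive). H1f0 had a log2 fold change of -0.67 ± 0.14 (SE, adjusted p = 0.188 by edgeR, 0.00534 by DESeq2), with all 3 libraries below all 3 of Het empty. H2bc21, an H2B gene whose product is enriched in olfactory neurons, had -0.41 ± 0.12 (adjusted p = 0.555). H2bc21 read 9.87, 8.75 and 8.51 CPM in WT empty, 7.90, 8.91 and 8.99 in Het empty, 6.44, 6.74 and 7.39 in Het DDX41, 8.10, 7.81 and 7.69 in Het G173R and 6.97, 6.68 and 5.77 in Het R525H. Unlike most genes of the class given by its symbol, H2bc21 was not highest in library 2 of Het G173R or Het R525H. H2az2 had -0.27 ± 0.09 (adjusted p = 0.665). These 3 genes were the members in which the groups did not overlap, against 5.22% of all genes lower without overlap. The median over all 67 was -0.12 (all genes, -0.01), and it was -0.65 without Het R525H library 2 and 0.13 without library 3, 0.01 without library 1 and 0.08 without Het empty library 3, so its sign rests on single libraries.

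Het R525H was also set against the other vectors, with the same 3 Het R525H libraries, so these comparisons are not separate observations. Against Het G173R, edgeR called no member (0.0825% of all genes), DESeq2 called 1 (119 of 14548 genes) and limma-voom none, and 3 passed an unadjusted p of 0.05 (6.39% of all genes). H2az2 had a log2 fold change of -0.37 ± 0.09 (adjusted p = 0.205), H1f0 -0.51 ± 0.14 (0.338) and H2bc21 -0.28 ± 0.12 (0.712), each without overlap, as was H3f3a; 5.28% of all genes were lower without overlap. With the library number as a block, H1f0 (adjusted p = 0.00862) and H2az2 (0.0315) were called lower, in a fit that called 141 of 14548 genes. All 67 members had a negative value (48.4% of all genes were positive), with a median of -0.30 (all genes, -0.01). But without Het G173R library 2 the median was 0.36 and 58 of 67 were positive. Against Het DDX41 no member was called by edgeR (0% of all genes), DESeq2 or limma-voom, and 2 passed an unadjusted p of 0.05 (3.99% of all genes). H2az2 (-0.31 ± 0.09, adjusted p = 0.627) and H1f0 (-0.39 ± 0.14, adjusted p = 1) were lower in all 3 libraries there too, as were H3f3a and H2bc24, against 5.51% of all genes. Of the 67, 52 were positive (51.3% of all genes), and the median of 0.19 turned to -0.33 without Het R525H library 2.

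Het empty against WT empty compares the lines with 1 and 2 copies of Ddx41. No member was called with edgeR, DESeq2 or limma-voom (3.66% of all genes were with edgeR), and none had an unadjusted p under 0.05 (11.6% of all genes did). The smallest p was that of H3f3b, with a log2 fold change of 0.14 ± 0.07 and an adjusted p of 0.525. Replication-dependent genes were mostly higher in Het empty on average: 57 of 59 had a positive log2 fold change (49.8% of all genes did), with a median of 0.61, against 5 of 8 and 0.06 for the replication-independent genes. In 23 of the 67 members, all replication-dependent, the 3 Het empty libraries lay above the 3 WT empty ones (8.33% of all genes did so). They were 2 H1, 5 H2A, 7 H2B, 4 H3 and 5 H4 genes. These members rise and fall together between libraries, so the count is not 23 separate observations. The median over all 67 was 0.52 (all genes, 0.00) and 0.37 to 0.75 with 1 library left out. Summed replication-dependent mRNA was 3906, 4276 and 3443 CPM in WT empty and 4352, 5447 and 5901 in Het empty, so these groups did not overlap on this scale. Summed TPM did overlap, at 10395, 9733 and 9417 in WT empty and 10310, 11435 and 12715 in Het empty. The other heterozygous groups, whose lowest libraries were 3328, 3009 and 2958 CPM, overlapped WT empty. Summed levels of all 7 marker lists of other cell types also differed between these groups without overlap. As given above, several of these sums rested largely on 1 gene. Fitted to these 6 libraries alone, H2bc8 passed (log2 fold change 0.52, adjusted p = 0.0461) among 424 of 13774 genes called.

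**Figure D4:**
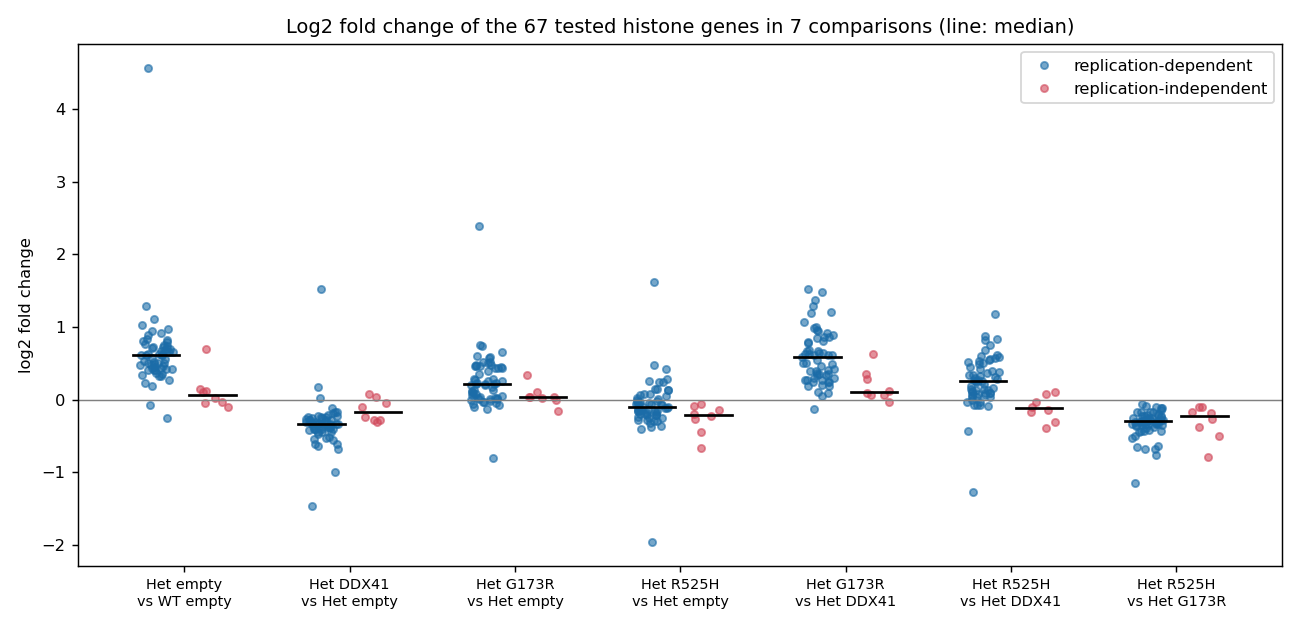
Log2 fold change of the 67 tested histone genes in the 7 pairwise comparisons, replication-dependent and replication-independent apart, with a line at each median. The replication-dependent median runs from 0.61 in Het empty against WT empty to -0.34 in Het DDX41 against Het empty. The point near the top is H2ac13, which had no count in WT empty.

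Het DDX41 and Het G173R were compared with the same Het empty libraries, so these comparisons share them. For Het DDX41, edgeR, DESeq2 and limma-voom called no member (0% of all genes with edgeR), and 1 passed an unadjusted p of 0.05 (1.75% of all genes). That was H2bc21, with -0.33 ± 0.11 (adjusted p = 1) and no overlap, as for H1f2 and H2ax (3.33% of all genes lower without overlap). H2ac13 was higher without overlap at 0.126 to 0.329 CPM against 0.0640 to 0.117 (3.92% of all genes were higher without overlap). Of the 67, 62 were negative (47.8% of all genes were positive). The median over the 67 was -0.33 (all genes, -0.01), and it stayed between -0.49 and -0.17 with 1 library left out. With only libraries numbered 1 and 2 it was 0.01. For Het G173R, no member was called by edgeR, DESeq2 or limma-voom (0% of all genes with edgeR, 3 of 14548 with DESeq2). With edgeR none had an unadjusted p under 0.05 (0.605% of all genes). None was free of overlap (1.65% of all genes were higher, and 1.27% lower). H2ac13 had the smallest p (log2 fold change 2.39 ± 1.35, adjusted p = 1). The median was 0.20, but -0.50 without Het G173R library 2, near 0 without Het empty library 1 and 0.51 without Het G173R library 3. Het G173R against Het DDX41 gave 65 of 67 positive values (51.6% of all genes) with a median of 0.50, but -0.15 without Het G173R library 2. There, too, edgeR, DESeq2 and limma-voom called no member (0% of all genes with edgeR, 4 of 14548 with DESeq2). With edgeR none passed an unadjusted p of 0.05 (1.54% of all genes) and H2ac22, an H2A gene, had the smallest p (1.38 ± 0.69, adjusted p = 1). H2ac22 read 1.06, 0.982 and 1.06 CPM in WT empty, 1.36, 2.55 and 3.71 in Het empty, 1.67, 2.27 and 0.919 in Het DDX41, 1.76, 9.17 and 1.82 in Het G173R and 1.15, 5.99 and 1.81 in Het R525H. Its highest values were again those of libraries 2 of Het G173R and Het R525H. H2bc21 was the member whose groups did not overlap, and it was higher in Het G173R (2.83% of all genes).

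Library numbers recur in every group, so libraries numbered 3 were set against those numbered 1 and 2 in a model with group and number. The labels do not say what a number stands for. In this comparison 22 of 67 members were called: 20 lower and 2 higher, while 46.1% of all genes were called, 21.1% higher and 25% lower. All 5 replication-dependent linker genes fell, as did 9 H2B, 2 H3, 1 H2A, 1 H4 gene and the variants H2az1 and H2ax. H1f5 fell by 0.59 ± 0.09 (edgeR adjusted p = 0.000119, lower in 5 of 5 groups), H1f1 by 0.47 ± 0.10 (0.00136, in 4), H2bc13 by 0.71 ± 0.16 (0.00229, in 4) and H1f3 by 0.50 ± 0.11 (0.00286, in 4). H2bc13 read 18.1, 18.7 and 11.9 CPM in WT empty, 21.9, 24.6 and 23.4 in Het empty, 24.3, 19.6 and 14.6 in Het DDX41, 25.1, 40.6 and 13.1 in Het G173R and 24.2, 26.97 and 11.2 in Het R525H. H1f3 read 293, 304 and 230.0 CPM in WT empty, 297, 358 and 342 in Het empty, 304, 309 and 219.8 in Het DDX41, 346, 458 and 196 in Het G173R and 292, 421 and 209 in Het R525H. In both genes library 3 was the lowest of every group but Het empty. H1f0 rose by 0.25 ± 0.05 (adjusted p = 0.00168), highest in library 3 in all 5 groups, and H3f3a by 0.11 ± 0.04 (0.0205). Without the filter on low counts H3f3a did not pass (adjusted p = 0.107). The count of called members was 52 without Het empty library 3 (6905 of 14938 genes were called in that fit) and 11 without Het DDX41 library 3 (5008 of 14866). It was 9 without Het G173R library 3 (5187 of 14876) and 9 without Het R525H library 3 (5758 of 14923).

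**Figure D5:**
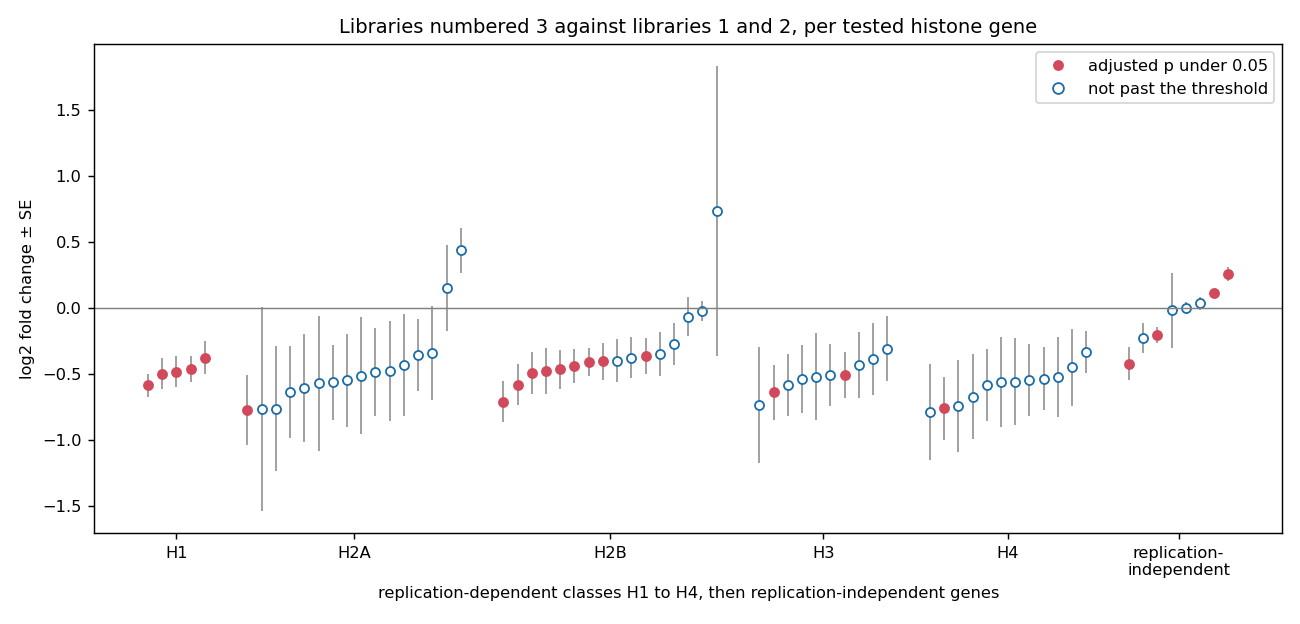
Log2 fold change ± SE of libraries numbered 3 against libraries 1 and 2 for each tested histone gene, in order within each class, with filled points at an adjusted p under 0.05. All 5 linker genes are filled and lie below 0, and H1f0 and H3f3a are the filled points above 0.

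Libraries 2 against 1 gave no called member by edgeR, DESeq2 or limma-voom (0% of all genes with edgeR). DESeq2 called 24 of 14548 genes there. Still, 65 of 67 members were positive (54.3% of all genes), with a median of 0.56 (all genes, 0.01). With edgeR, 38 had an unadjusted p under 0.05 (10.9% of all genes). The median was 0.31 to 0.69 with 1 library left out. Summed replication-dependent mRNA in libraries 1 and 2 was 3906 and 4276 CPM in WT empty and 4786 and 4816 in Het DDX41. It was 4352 and 5447 in Het empty, 4870 and 8773 in Het G173R and 4135 and 6910 in Het R525H. In WT empty the H2A, H3 and H4 sums were lower in library 2, and the H1 and H2B sums higher. H2ac23 had the smallest p, with 1.41 ± 0.37 and an adjusted p of 0.397. H2ac23 read 2.25, 7.18 and 11.98 CPM in WT empty, 5.33, 9.55 and 14.6 in Het empty, 8.47, 13.2 and 8.19 in Het DDX41, 5.25, 26.9 and 7.64 in Het G173R and 7.49, 22.3 and 5.87 in Het R525H. Library 2 of H2ac23 lay above library 1 in every group. Without the filter on low counts 27 members were called, all higher in library 2, where 147 of 24985 genes were called, 40 higher and 107 lower.

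Genes that make and carry histones were read from lists. Of 28 tested genes of histone mRNA synthesis, 3′ processing and decay, among them Slbp and Srrt, none was called in the 7 pairwise comparisons. Of these, 1 of 28 passed the 5-group test, which 3.7% of all genes passed. That was Zfp473, a zinc-finger protein of the U7 processing complex, at 12.4 ± 1.18 CPM in WT empty and 9.20 ± 1.10 in Het empty (adjusted p = 0.0263 in the 5-group test, and 0.0567 between these 2 groups). Of 29 chaperone and deposition genes, such as Nap1l1 and Ssrp1, and of 33 replication and S-phase genes, such as Pcna and Mcm5, none was called in the 7 comparisons or the 5-group test. Median log2 fold changes of these 3 lists lay between -0.05 and 0.05 in the pairwise comparisons. In the libraries numbered 3, 19 of 28, 19 of 29 and 25 of 33 fell and none rose, while 25% of all genes were called lower and 21.1% higher. In the first list the 4 smallest p were those of Ncbp2, a cap-binding subunit (-0.45 ± 0.05, edgeR adjusted p = 8.52e-06), Ints3 (-0.37), Yy1 (-0.25) and Gon4l (-0.26). Among chaperones they were those of Asf1b, which carries H3 and H4 (-0.37 ± 0.04, edgeR adjusted p = 1.55e-05), Tonsl (-0.44), Mms22l (-0.26) and Supt16, a subunit of FACT (-0.29). Among replication genes they were those of Ccna2, cyclin A (-0.31 ± 0.04, edgeR adjusted p = 2.76e-05), the polymerase subunits Pola2 (-0.34) and Pold1 (-0.55), and the helicase subunit Mcm6 (-0.35). Outside the symbol pattern 4 histone genes were tested. Macroh2a1 (-0.39 ± 0.05, adjusted p = 7.43e-05) and H2bu1-ps (-0.43 ± 0.13, 0.0168) fell in libraries numbered 3, while Cenpa and H4f16 did not pass.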

How the data were processed

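Total RNA of 15 libraries was sequenced after rRNA reduction, per the labels' protocols. The authors deposited expected counts and TPM (a level per length of transcript) per gene made with RSEM, per the submitters' processing notes; its version, the aligner and the build: not given in the sources used here. Expected counts divide reads among similar genes. They were rounded and fitted with edgeR 4.0.16 (R 4.3.3): filterByExpr left 14548 genes, TMM scaling gave factors of 0.969 to 1.06, and 1 quasi-likelihood model held all 5 groups, with Benjamini-Hochberg adjustment over all tested genes and calls at an adjusted p under 0.05. Libraries of 22104066 to 49145873 counts set the precision. The deposited TPM served to compare levels between genes and, summed, to set Het empty beside WT empty. The deposited lengths, which are in bases, served to describe H2bc24 and, as effective lengths, to relate spread to length. Library numbers were taken from the titles. Deviations from group means correlated between libraries of one number in all 3 pairs of 5 of the 7 comparisons (0.18 to 0.71). For number 1 the correlation was only -0.03 in Het DDX41 against Het empty and 0.07 in Het R525H against Het empty. Numbers 2 and 3 gave 0.28 and 0.44 in the former and 0.34 and 0.38 in the latter. Over the histone members alone, all 3 pairs were positive only in Het R525H against Het G173R (0.85 to 0.95). The lowest were -0.65 in Het G173R against Het empty (number 3) and -0.62 in Het empty against WT empty (number 1). Alternatives used DESeq2 1.42.0, its size factors, limma 3.58.1 with voom, no filter, a number block, fewer libraries and, chosen after seeing the data, a GC correction. Scripts were tested on simulated data. Values in every library are given for the 2 tested members of highest TPM in each replication-dependent class, every replication-independent member, members called (with many, the 4 of smallest p in a direction) and the member of smallest p in each comparison. Members and lists were chosen with earlier results of these data known. Stem-loops came from GENCODE M21 and promoters from RefSeq GRCm38.p6, where 68 of 77 members matched.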

Additional observations from a re-analysis of the deposited data

How the results depend on the processing

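No called member changed direction, but the median over the tested members changed sign with 1 library left out in 5 of the 7 group comparisons, as given with each. Het R525H against Het empty gave 0 called members with edgeR and 1 with DESeq2, where 59 of 14548 genes were called. It gave 1 with the replicate block (63 genes) and 1 with the replicate block and GC correction together (64 of 14503). For these groups pairing by number was weak for number 1 (correlation of deviations 0.07), against 0.34 and 0.38 for numbers 2 and 3. Het R525H against Het G173R gave 1 with DESeq2 (119 of 14548 genes), 2 with the replicate block (141) and 2 with the block and GC correction (161 of 14503). Fitted to its 6 libraries alone, Het empty against WT empty gave 1 (424 of 13774 genes). The test over 5 groups gave 3 members with DESeq2 (1153 of 14548 genes), 3 with the replicate block (1762) and 3 with the block and GC correction (1783 of 14503). It gave 0 with DESeq2's size factors in edgeR (554 genes), 0 with limma (524) and 0 with the GC correction (520). With 1 library left out it gave 0 to 2 (326 to 597 genes). Libraries 3 against 1 and 2 gave 48 without the filter on low counts (6594 of 24985 genes) and 9 to 52 with 1 library left out (5008 to 6943 genes). Libraries 2 against 1 gave 27 without the filter (147 of 24985 genes). The replicate block changed no other count of called members. The cause of these shifts was not tested. Each group has 3 libraries, and near-identical copies share reads, which limits the precision for single genes.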

Other observations

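The deposited length of H2bc24, which RSEM weights by the transcripts it assigns reads to, was 1256 to 1277 bases in 10 libraries and 2191 to 2197 in the others. The longer value stood in WT empty 1 and 2, Het empty 2, Het G173R 3 and Het R525H 3, where H2bc24 read 0.382, 0.293, 0.268, 1.31 and 0.495 CPM. H2bc23, its near copy, kept a length of 1254 to 1263 bases in every library.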
